A study of Mus musculus with 6 samples.

Results

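The DEAD and DEAH box RNA helicases of mouse embryo fibroblasts (MEFs) were examined in wild-type (WT) and Mcm8 knockout (KO) cells. The genes were chosen by symbol: every protein-coding gene named Ddx or Dhx with a number was taken, and the copy on the Y chromosome, Ddx3y, was left out and used only beside its X-linked partner Ddx3x. This gave 52 genes, 36 with a Ddx and 16 with a Dhx symbol, of 55565 genes listed and 21884 protein-coding genes. Of these, 51 had at least 10 counts in at least 3 libraries and were tested among 14454 genes that passed the same filter. The remaining gene, Ddx4, had between 0 and 4 counts per library.

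Bulk RNA-seq was performed on 3 WT (Mcm8+/+) and 3 KO (Mcm8-/-) libraries. The KO allele lacks a segment of Mcm8 that carries an exon, made with CRISPR-Cas9, and the mice had a mixed C57BL/6J and ICR background. Both genotypes came from crosses of heterozygous parents. E13.5 embryos stripped of head, limbs, heart and liver gave the cells, which were immortalized with an SV40 lentivirus and selected with puromycin, so both groups carry the viral gene. The methods call the repeats biological. Whether they are different embryos or different dishes of cells is told neither there nor in the labels, so p-values measure the spread between these libraries. Library totals lay between 12722979 and 21022755 counts. WT1, the smallest library, stood further from WT2 and WT3 than these stood from each other (chi-square per degree of freedom 13.7 and 12.9, against 4.34), and counts of calls that change without it are given beside the results.

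RNA helicases of these families use ATP to load onto RNA, open short duplexes or push proteins off RNA. DEAD box proteins grip RNA and pry apart a few base pairs locally, whereas most DEAH box proteins move along a strand and are switched on by partner proteins with a glycine-rich G-patch. They serve every step in the life of an RNA: transcription, splicing, export, translation, decay and the making of ribosomes. Several also act on R-loops, structures in which a nascent RNA pairs with its DNA template and displaces the other strand. The study that made the libraries followed DDX5 and DHX9 as partners of MCM8, a helicase of homologous recombination, and the comparison below asks whether the transcripts of such helicases differ between WT and KO MEFs. The descriptions attached to the genes differ between the families without separating them fully: the helicase associated domain (HA2) and the OB-fold are named for 13 of 16 Dhx genes and for 0 of 36 Ddx genes.

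Sequences before the transcription start are given for 3 members: Dhx34 and Ddx3x, the members with an adjusted p-value below 0.05, and Dhx9, an R-loop helicase followed by the study. Each run is the 250 bases before the start listed by RefSeq furthest upstream, 5′ to 3′ on the strand of the gene, from build GRCm38.p6. Capitals mark matches to 8 short promoter motifs searched on both strands. They are the TATA box core TATAA, the CCAAT box, the GC box GGGCGG, the ETS core CCGGAAG, the NRF1 core GCATGCGC, the E-box CACGTG, the YY1 core AAGATGGC and the element TCTCGCGA. Neighbouring matches can overlap, as the pair of NRF1 matches before Dhx34 do.
Dhx34 (chr7:16222033-16222282, minus strand): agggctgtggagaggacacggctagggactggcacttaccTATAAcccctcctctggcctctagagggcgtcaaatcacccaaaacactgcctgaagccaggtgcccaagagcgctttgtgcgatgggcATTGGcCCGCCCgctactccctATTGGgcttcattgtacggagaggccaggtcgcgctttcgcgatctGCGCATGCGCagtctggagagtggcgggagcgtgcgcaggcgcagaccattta
Ddx3x (chrX:13280772-13281021, plus strand): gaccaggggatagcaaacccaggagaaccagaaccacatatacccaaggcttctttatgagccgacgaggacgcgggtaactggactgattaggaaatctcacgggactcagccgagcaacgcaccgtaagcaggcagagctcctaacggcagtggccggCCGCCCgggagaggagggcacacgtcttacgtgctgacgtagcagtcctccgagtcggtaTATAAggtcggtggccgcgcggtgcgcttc
Dhx9 (chr1:153487661-153487910, minus strand): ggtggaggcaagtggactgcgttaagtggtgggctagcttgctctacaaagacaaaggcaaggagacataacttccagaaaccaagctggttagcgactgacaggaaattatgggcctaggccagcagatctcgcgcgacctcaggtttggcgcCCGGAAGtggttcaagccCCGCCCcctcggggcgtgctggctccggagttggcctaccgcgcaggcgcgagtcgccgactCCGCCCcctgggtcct

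A TATAA match lay 30 to 26 bases before the Ddx3x start. Before Dhx34 the NRF1 core was matched once on each strand, in overlapping positions between bases 53 and 44, with 2 CCAAT boxes, 1 GC box and a TATAA match far upstream of the start. The Dhx9 sequence held 1 ETS core and 2 GC boxes. Entries were found for 46 of the 52 members, with 57 promoters in all. The ETS core was found in 29.8% of these against 6.91% of all 32851 promoters in the table, the NRF1 core in 10.5% against 2.26%, the GC box in 56.1% against 32.7%, the CCAAT box in 42.1% against 33.8%, the E-box in 10.5% against 6.02%, and TATAA in 15.8% against 22.8%. No member promoter held the YY1 core (1.56% of all promoters) or TCTCGCGA (0.858%). Member promoters also held more CpG dinucleotides, a median of 18 in 250 bases against 6 over all promoters, and the part of that difference in the motif shares was not tested. These matches describe letters only.

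The targeted gene was checked first. Mcm8 had 13.9, 16.6 and 12.7 CPM (counts scaled to each library's total with a TMM factor) in the WT libraries, named here in their numbered order, and 4.21, 4.46 and 4.13 CPM in the KO libraries. All KO libraries lay below all WT libraries, at 29.6% of the WT mean. Its log2 fold change (KO minus WT) was -1.75 ± 0.15 (SE; Benjamini-Hochberg adjusted p = 2.24e-06 over all genes tested, edgeR quasi-likelihood test). Defining fibroblast genes such as Col1a1 and Vim were abundant in all libraries, and the summed level of 11 fibroblast and mesenchyme markers was 20153 to 21883 CPM in WT libraries and 21022 to 21633 CPM in KO libraries. Of these 11, Thy1, Pdgfrb and Vim fell and Col1a1 and Col3a1 rose in KO MEFs. Of 6 epithelial markers only Krt8, Krt18 and Krt19 passed the count filter, and of 5 mesothelial markers only Msln. The epithelial list was at 3.43 to 5.20 CPM in sum in the WT and 12.3 to 13.3 CPM in the KO libraries. The mesothelial list was at 2.93 to 3.50 CPM in the WT and 43.3 to 48.9 CPM in the KO libraries. Of 4 nerve and glia markers, 3 were tested. Sox2 and Tubb3 were called higher and 0 were called lower, beside 7.92% and 6.23% of all genes. The other tested marker had a log2 fold change of -0.87, with every KO library below every WT library. In sum the list was at 22.0 to 24.0 CPM in the WT and 33.5 to 36.3 CPM in the KO libraries. The part of these lists in the helicase values below was not tested. In bulk RNA, fewer cells of a type and less RNA per cell cannot be told apart.

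The members spanned a wide range of levels, compared here in FPKM, which accounts for gene length. Ddx5, a coactivator of transcription that also serves microRNA processing and R-loop resolution, was highest, at 142 ± 5.49 FPKM in WT (SD, n = 3), followed by Ddx3x, a translation factor for structured 5′ leaders, at 137 ± 2.11 FPKM. The WT ranges of these members overlapped. Ddx17, the close relative of Ddx5, had 83.2 ± 5.53 FPKM, the nucleolar helicase Ddx21 76.0 ± 2.32 FPKM and the mRNA export factor Ddx39b 69.7 ± 2.63 FPKM. Ddx3x lay above Ddx17 and Ddx21 above Ddx39b with no overlap between WT libraries, while Ddx17 and Ddx21 overlapped. In all, 5 members had a mean above 50 FPKM in WT, 34 a mean above 10 and 3 a mean below 1. The 10 highest members were the same in both genotypes. Of the 50 neighbouring pairs in the order of WT levels among the tested members, 34 overlapped between libraries and 16 did not, so the exact ranks in the middle of the order are not resolved. The coefficient of variation between libraries had a median over the tested members of 5.40% in WT and 3.72% in KO.

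**Figure D1:**
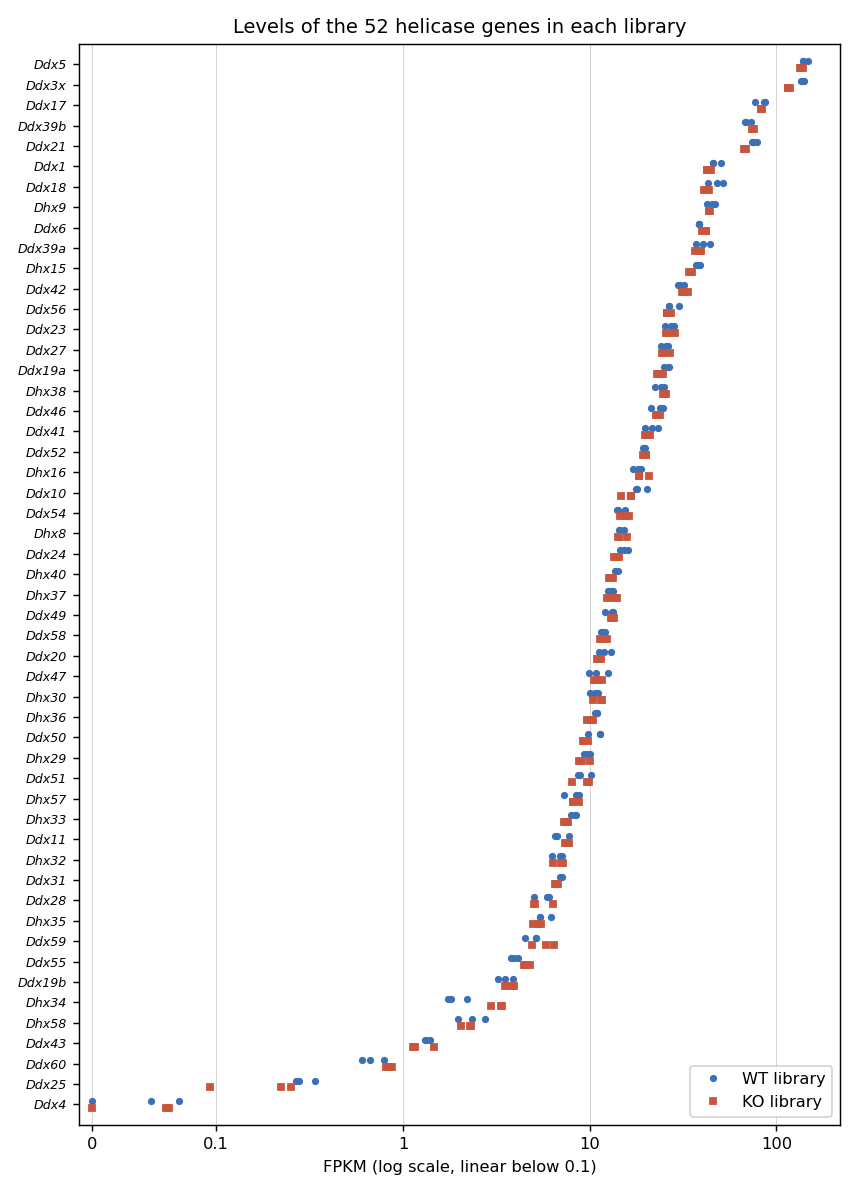
Level of each of the 52 helicase genes in FPKM (horizontal axis, log scale and linear below 0.1) in 3 WT libraries (circles) and 3 KO libraries (squares), ordered by mean level. Ddx5 and Ddx3x stand at the top and Ddx4 at the bottom, and for most genes the symbols of both genotypes overlap.

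The helicase transcripts changed little between genotypes. Of the 51 tested members, 1 was higher in KO (Dhx34) and 1 was lower (Ddx3x) at an adjusted p below 0.05, that is 3.92% of members. Over all genes tested the share was 14.2%, with 7.92% higher and 6.23% lower. With a change past 2-fold asked for as well, 0 members and 3.74% of all genes passed. With an unadjusted p below 0.05 there were 8 members (15.7%; 2 higher and 6 lower), against 27.2% of all genes. DESeq2 and limma-voom called Dhx34 and Ddx3x and no other member. Leaving out a library moved the calls of members and of all genes. Without WT1, 5 members were called, with Ddx39b higher and Ddx21 and Dhx15 lower in addition, beside 22.7% of all genes. Without WT3 there were 4, with Ddx18 and Ddx50 lower in addition, beside 12.3% of all genes. Without KO1 or KO3 Dhx34 alone was called, beside 8.41% and 8.42% of all genes, and without WT2 or KO2 Dhx34 and Ddx3x were called, beside 12.1% and 9.06%.

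The median log2 fold change of the tested members was -0.0017, beside -0.00010 for all genes tested. The median size of the change, sign aside, was 0.088 for members and 0.151 for all genes. For 40 of the 51 members the 95% confidence interval of the fold change lay within 1.25-fold in either direction (78.4%, against 36.8% of all genes), and for 47 it lay within 1.5-fold (92.2%, against 64.7%). Members had more counts than most genes, with a median of 1219 counts per library against 394, which narrows the intervals. Libraries of the genotypes did not overlap for 5 members that were higher in KO (9.80%, against 17.4% of all genes) and for 12 that were lower (23.5%, against 15.6%).

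**Figure D2:**
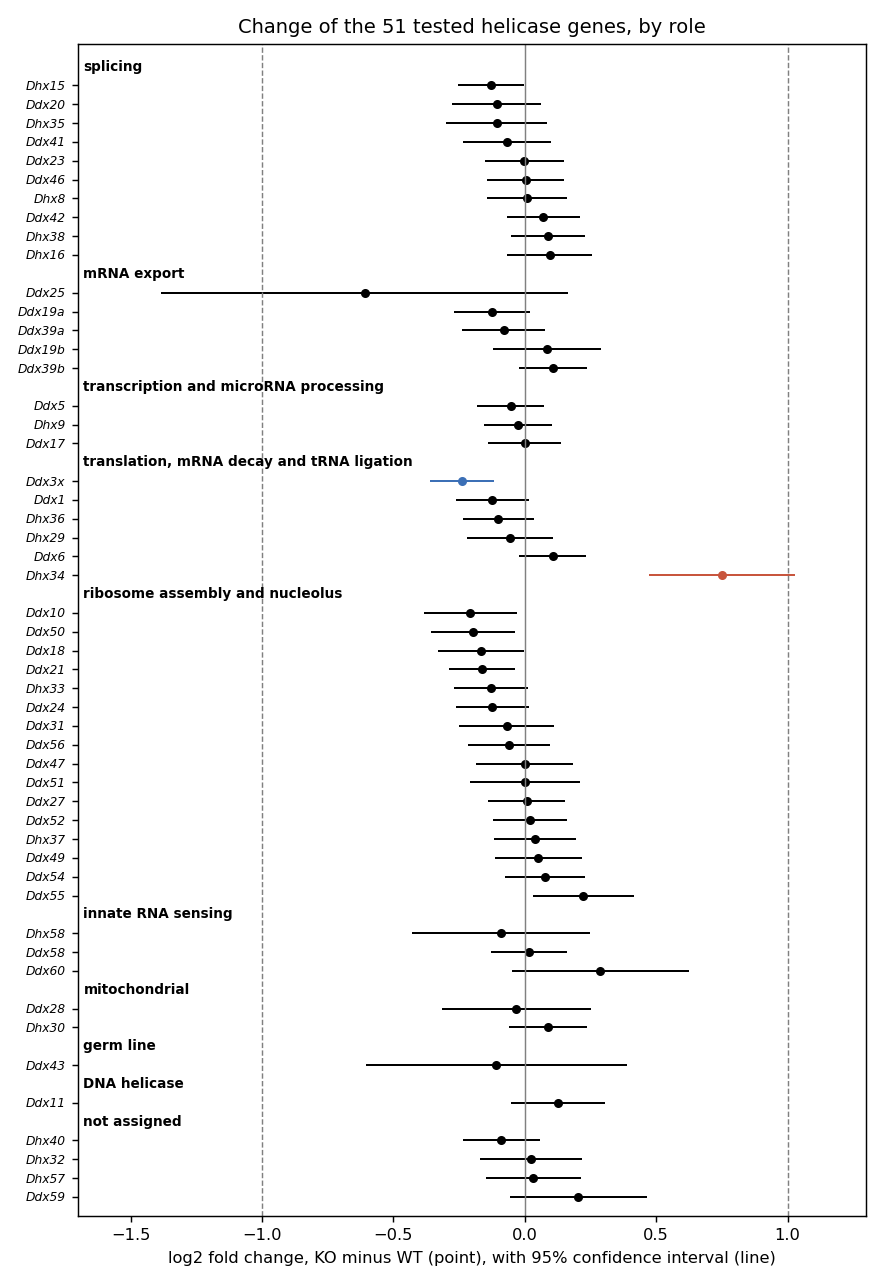
Log2 fold change (KO minus WT; horizontal axis) of the 51 tested helicase genes with its 95% confidence interval, grouped by role; dashed lines mark a 2-fold change. Dhx34 (red) and Ddx3x (blue) passed an adjusted p of 0.05, and Ddx25, with few counts, has the widest interval.

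Dhx34, a DEAH box helicase known from nonsense-mediated decay, which removes mRNAs with premature stop codons, rose in KO MEFs. The WT libraries held 106, 112 and 190 of its counts, and the KO libraries 333, 256 and 218. As CPM these were 8.35, 8.0 and 10.1 in WT and 15.7, 15.4 and 13.6 in KO. The lowest KO library lay above the highest WT library, and the means were 8.83 ± 1.15 CPM in WT and 14.9 ± 1.13 CPM in KO (SD, n = 3 each). Its log2 fold change was 0.75 ± 0.13 (SE), a 1.68-fold rise with a 95% confidence interval from 1.39 to 2.04 (Benjamini-Hochberg adjusted p = 0.00109, edgeR quasi-likelihood test). The call held in every omission of a single library, with the largest adjusted p at 0.0104 in edgeR. By level it stayed among the lowest members, with 1.91 ± 0.25 FPKM in WT and 3.23 ± 0.24 FPKM in KO. It is on chromosome 7 and no other listed gene overlaps it.

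Ddx3x, on the X chromosome, fell in KO MEFs. Its level was 730, 739 and 717 CPM in the WT libraries and 610, 629 and 611 CPM in the KO libraries. Every KO library lay below every WT library, at 84.6% of the WT mean. The log2 fold change was -0.24 ± 0.05 (SE; 95% confidence interval from -0.36 to -0.12; Benjamini-Hochberg adjusted p = 0.00892, edgeR quasi-likelihood test). The call was lost without KO1 (adjusted p = 0.081 in edgeR) and without KO3 (adjusted p = 0.0649), where the log2 fold change was -0.23 each time.

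Ddx3y, the Y-linked copy of Ddx3x, moved the other way. It had 8.74, 6.78 and 7.79 CPM in WT and 40.6, 48.9 and 38.8 CPM in KO libraries, a log2 fold change of 2.46 ± 0.12 (SE; Benjamini-Hochberg adjusted p = 1.12e-08, edgeR quasi-likelihood test). The other sex-linked genes followed: the Y-linked Eif2s3y, Kdm5d and Uty rose by 1.95, 2.14 and 2.23 on the log2 scale, while Xist, the RNA that silences an X chromosome in female cells, fell by 1.31, Eif2s3x by 0.44 and Kdm6a by 0.32. Kdm5c, X-linked as well, had a log2 fold change of -0.11 that did not pass the test (adjusted p = 0.441, edgeR quasi-likelihood test). Xist was at 945, 1361 and 1282 CPM in WT and 475, 496 and 476 CPM in KO libraries, so RNA of both Xist and Y-linked genes was present in every library, in other proportions in each genotype. The sex of the embryos is not given in the labels. The genotype and the mix of male and female cells therefore cannot be told apart for Ddx3x.

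Ddx3x and Ddx3y are near-identical over much of their coding sequence, and reads could be split between them, so both values are uncertain. Ddx3y made up 1.06% of the summed counts of this gene pair in WT and 6.48% in KO. Together they reached 736 ± 10.3 CPM in WT and 659 ± 15.7 CPM in KO. Its log2 fold change was -0.16 ± 0.06 (SE), and the call was lost (Benjamini-Hochberg adjusted p = 0.0733, edgeR quasi-likelihood test). Ddx3x was lower by 112 CPM in KO, and Ddx3y was higher by 35.0 CPM.

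**Figure D3:**
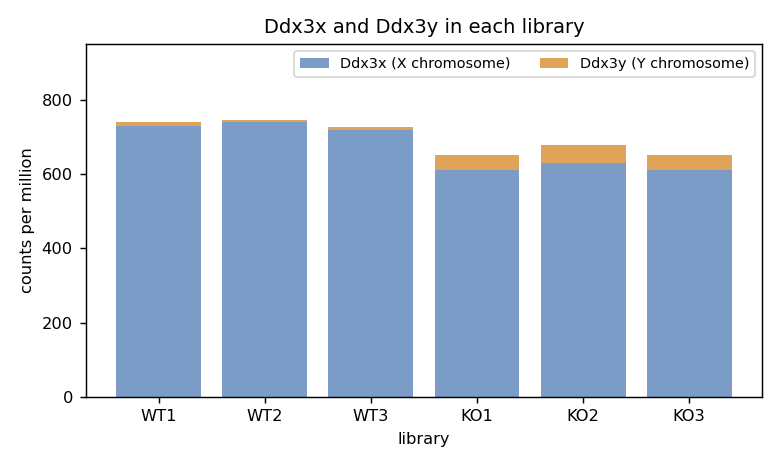
Level of Ddx3x and of Ddx3y, stacked, in CPM (vertical axis) in each of the 6 libraries. The Ddx3y part is larger in the KO libraries, and each KO bar is lower in total than each WT bar.

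The helicases of transcription and R-loop resolution did not pass the test. Ddx5 was at 860, 802 and 805 CPM in WT and 786, 810 and 780 CPM in KO libraries, which overlapped. Its log2 fold change was -0.05 with a 95% confidence interval from -0.18 to 0.07 (adjusted p = 0.591, edgeR quasi-likelihood test), so a fall to below 88.4% of WT or a rise to above 105% lies outside the interval. Dhx9, which unwinds RNA-DNA hybrids and binds double-stranded RNA, was at 408, 450 and 434 CPM in WT and at 425, 422 and 423 CPM in KO libraries. The KO values lay within the WT range, and the log2 fold change was -0.03 (95% confidence interval from -0.15 to 0.10; adjusted p = 0.828, edgeR quasi-likelihood test). Ddx17 likewise had a log2 fold change of -0.0011 (interval from -0.13 to 0.13).

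**Figure D4:**
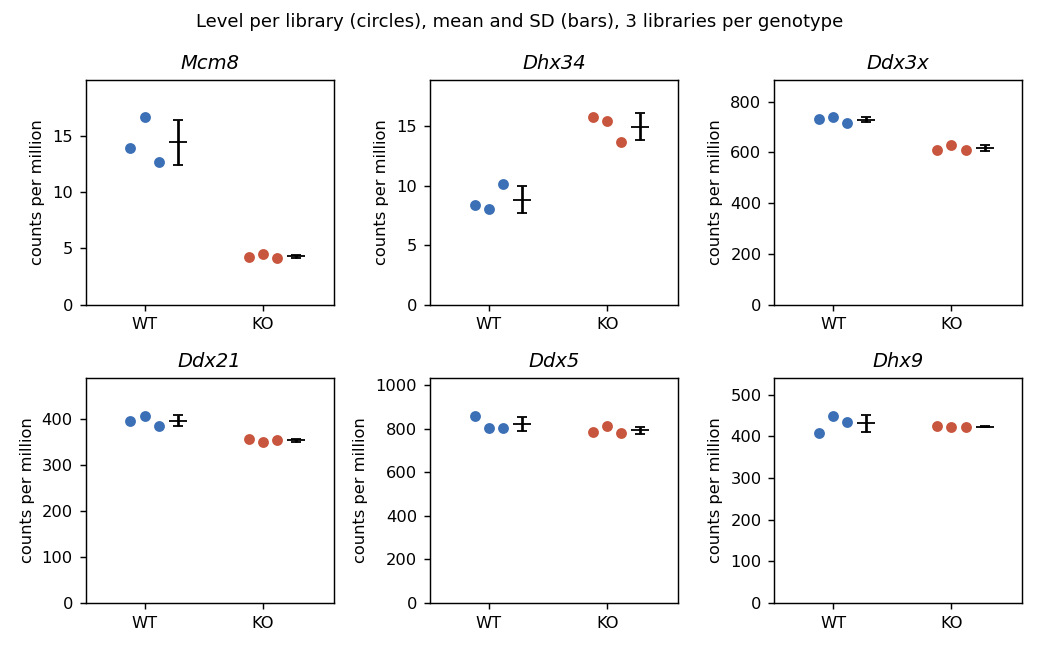
Level in CPM (vertical axis, from 0) of Mcm8 and of 5 helicase genes in each library (circles), with the mean and SD of 3 libraries per genotype (black). The genotypes are apart for Mcm8, Dhx34, Ddx3x and Ddx21 and overlap for Ddx5 and Dhx9.

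Among 9 members linked to R-loops by earlier work, 0 passed the test, 8 had a log2 fold change below 0 and the median was -0.05. Over all genes tested 14.2% passed and 50% had a log2 fold change below 0, against 54.9% of the tested members. Their unadjusted p-values below 0.05 numbered 1 (Ddx21). Ddx39b, the export helicase UAP56 that also removes R-loops, was the exception in sign, at 276, 262 and 257 CPM in WT and 281, 285 and 290 CPM in KO. The groups did not overlap, and its log2 fold change of 0.11 had an adjusted p of 0.263 in edgeR. Ddx1, a helicase of tRNA ligation, had 258, 234 and 233 CPM in WT and 217, 218 and 229 CPM in KO, and Ddx19a, which releases export factors at the nuclear pore, 79.3, 74.3 and 78.4 CPM in WT and 68.6, 70.8 and 73.5 CPM in KO. Both were lower in KO with no overlap, as was Ddx21, and had log2 fold changes of -0.12 (adjusted p = 0.226 and 0.241 in edgeR). The spliceosomal Ddx23 had one of -0.0017. The 9 members together were at 97.1% of WT in KO, with no overlap between the summed levels. The sum of all genes tested was at 98.7% of WT in KO and did not overlap either. Ddx19b, the paralogue of Ddx19a that lies 5.39 kb from it on chromosome 8, had a log2 fold change of 0.08 (adjusted p = 0.615 in edgeR), and near-identical copies can share reads, so both values are uncertain. Ddx5, Ddx21, Ddx41 and Dhx9 are the members whose proteins the study precipitated with MCM8, from a mouse teratocarcinoma line. The values here are RNA of MEFs. Of these 4, 0 passed the test, and their summed level in KO was 95.1% of WT, with no overlap (exact two-sided permutation p = 0.1, the smallest possible). The mean sums were 1707 CPM in WT and 1624 CPM in KO, within which Ddx21 alone went from 395 to 353 CPM. Ddx41, a spliceosomal helicase, had a log2 fold change of -0.07 (95% confidence interval from -0.23 to 0.09). The strand setting of the counts is not given, so reads shared with an overlapping gene may be assigned to either gene. Ddx5, Ddx17, Ddx39b and Ddx41 are among 21 members that overlap another listed gene. The overlapping gene was called for 0 of these members. For Ddx5 and Ddx39b the overlapping genes are small RNAs on the same strand, with means of at most 0.431 CPM.

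The helicases of ribosome assembly and the nucleolus form the largest group, with 16 members. None passed the test, against 14.2% of all genes, and the median log2 fold change was -0.03. It was below 0 for 9 of the 16, a share near the 50% of all genes. Ddx21, which works at ribosomal RNA genes, was at 396, 407 and 383 CPM in WT and 356, 349 and 354 CPM in KO, with no overlap between groups. Its log2 fold change of -0.16 ± 0.06 (SE) missed the threshold (adjusted p = 0.0732, edgeR quasi-likelihood test), and without WT1 the adjusted p was 0.00428. Ddx50, a close paralogue of Ddx21 that lies 13.6 kb from it on chromosome 10, was at 116, 115 and 99.5 CPM in WT and 99.9, 93.3 and 95.2 CPM in KO. These groups overlapped by WT3 and KO1 alone, and the log2 fold change was -0.20 ± 0.07 (SE; adjusted p = 0.0942 in edgeR).

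Further members of the ribosome group had unadjusted p-values below 0.05 without passing the adjusted threshold. Ddx10, a factor of the small subunit, had 63.8, 55.3 and 56.2 CPM in WT and 52.2, 52.7 and 46.6 CPM in KO, a log2 fold change of -0.21 (adjusted p = 0.112 in edgeR). Ddx18 had 128, 120 and 107 CPM in WT and 109, 104 and 102 CPM in KO, with overlapping groups and a log2 fold change of -0.17 (adjusted p = 0.161 in edgeR). Ddx55, of the large subunit, went the other way. It had 21.0, 20.1 and 21.9 CPM in WT and 25.4, 23.6 and 24.5 CPM in KO, apart in all libraries, and a log2 fold change of 0.22 (adjusted p = 0.113 in edgeR). Added up, the 16 genes gave 1511 ± 38.3 CPM in WT MEFs against 1426 ± 21.8 CPM in KO MEFs. The libraries did not overlap, and an exact two-sided permutation test of 3 against 3 libraries gave p = 0.1, the smallest it can give. The KO sum of the group was 94.3% of WT, beside 98.7% for all genes tested, which did not overlap either.

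Non-helicase factors of ribosome assembly gave 5 genes lower and 0 higher of 20 tested at an adjusted p below 0.05 in edgeR, with a median log2 fold change of -0.16, beside 6.23% of all genes lower. The called genes are named after their values were seen. They were Npm1 (-0.31), Wdr43 (-0.29), Ncl (-0.27), Nop58 (-0.25) and Wdr12 (-0.24). Ncl encodes nucleolin and Npm1 nucleophosmin, both abundant nucleolar proteins. WT1 was the highest library for Ncl and Npm1. Ncl had 1600, 1447 and 1449 CPM in WT and 1262, 1215 and 1256 CPM in KO, so that the groups were apart with or without WT1. The number of factors called was 10 without WT1, where 10.9% of all genes were lower, and 1 without KO1, without KO2 or without KO3, where 3.36%, 3.65% and 3.37% of all genes were lower.

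**Figure D5:**
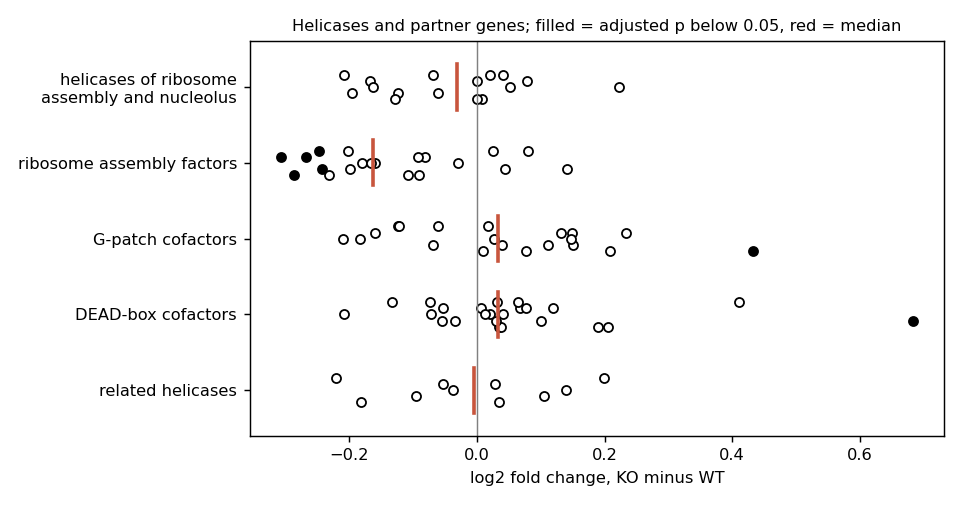
Log2 fold change (KO minus WT; horizontal axis) of the tested helicases of ribosome assembly and of 4 lists of genes that work beside the family, 1 circle per gene. Filled circles passed an adjusted p of 0.05 and red bars are medians: 5 ribosome assembly factors were lower, Gpatch11 and Pdcd4 were higher, and 0 of the 16 ribosome helicases passed.

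Splicing helicases drive the rearrangements of the spliceosome. Of 10 members, 0 passed the test, and their log2 fold changes ran from -0.13 (Dhx15) to 0.09 (Dhx16), with a median of 0.00072. Dhx15, which takes the spliceosome apart, was at 332, 325 and 317 CPM in WT and 292, 302 and 298 CPM in KO, with no overlap (adjusted p = 0.163 in edgeR). The 20 G-patch partners of DEAH helicases included 1 gene that rose, Gpatch11, with 21.2, 17.3 and 19.2 CPM in WT and 24.8, 27.0 and 26.2 CPM in KO. The log2 fold change was 0.43 ± 0.10 (SE; adjusted p = 0.00755, edgeR quasi-likelihood test), and 0 of 20 fell, counts to be read beside 7.92% of all genes higher and 6.23% lower.

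In the group of translation, mRNA decay and tRNA ligation, Dhx34 and Ddx3x were called and the other 4 members were not, beside 14.2% of all genes called. For Ddx3x the genotype and the mix of male and female cells cannot be told apart, as given above. Dhx36, which unwinds G-quadruplexes, had a log2 fold change of -0.10 (adjusted p = 0.320 in edgeR) with every KO library lower than every WT library, and Dhx29, a factor of translation initiation, one of -0.06 (adjusted p = 0.679 in edgeR). Ddx6, a repressor of translation that feeds mRNAs to decay, had 311 CPM in each WT library and 341, 341 and 322 CPM in the KO libraries. All KO libraries were higher, and the log2 fold change was 0.11 (adjusted p = 0.257 in edgeR). Of 24 tested cofactors of DEAD box helicases 1 rose and 0 fell, beside 7.92% and 6.23% of all genes. This was Pdcd4, which binds and inhibits the helicase eIF4A, with 15.3, 11.7 and 14.5 CPM in WT and 23.3, 20.7 and 22.5 CPM in KO. The groups were apart, with a log2 fold change of 0.68 ± 0.11 (SE; adjusted p = 0.000828, edgeR quasi-likelihood test). Of 10 tested helicases related to the family but named otherwise, among them Eif4a1, Eif4a3 and Snrnp200, 0 passed the test in edgeR, and 7 genes over the helicase and cofactor lists were called without WT1 against 2 with it, beside 22.7% and 14.2% of all genes.

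The sensors of viral RNA were expressed at low to moderate levels. Ddx58, which encodes RIG-I, was at 85.7, 82.2 and 81.3 CPM in WT and 83.7, 87.9 and 80.3 CPM in KO, with a log2 fold change of 0.02 and overlapping groups. Dhx58, encoding LGP2, a regulator of RIG-I-like receptors, had 7.71 ± 1.28 CPM in WT and 7.28 ± 0.46 CPM in KO. Ddx60, an interferon-induced helicase, had 5.83, 5.28 and 6.94 CPM in WT and 7.66, 7.12 and 7.39 CPM in KO, which did not overlap. The log2 fold change was 0.29 with a 95% confidence interval from -0.05 to 0.62 (adjusted p = 0.256 in edgeR). Log2 fold changes of the 11 tested interferon-stimulated genes had their median at 0.14, and 7 were above 0 and 4 below, beside 50% of all genes below 0. Among them Ifit3 fell (log2 fold change -0.66; adjusted p = 0.0415, edgeR quasi-likelihood test), from 4.96, 4.43 and 4.48 CPM in WT to 3.07, 2.53 and 3.13 CPM in KO, and 0 rose, beside 6.23% of all genes lower and 7.92% higher. The Ifit3 call was absent in DESeq2 and whenever a library was left out, and without WT1 Isg15 was called in its place.

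Germ cell helicases were near the bottom of the range. Ddx4, the germ cell marker also called vasa, was seen 0, 2 and 4 times in the WT libraries and 4, 3 and 0 times in the KO libraries, which leaves no fold change to report. Ddx43, which carries a KH domain, had 37, 41 and 58 counts in WT and 53, 54 and 41 counts in KO, with a log2 fold change of -0.11 (95% confidence interval from -0.60 to 0.38). Ddx25, a testis helicase grouped here with export, had 30, 26 and 36 counts in WT and 33, 11 and 28 in KO. A log2 fold change of -0.61 was the most negative of the family, but the interval from -1.38 to 0.16 was wide and KO2 alone was far below the other libraries. Without KO2 the log2 fold change was -0.30, and over the other omissions of a library it lay between -0.83 and -0.50. The 2 mitochondrial helicases gave 0 calls, beside 14.2% of all genes called. Their log2 fold changes were -0.03 for Ddx28 (95% confidence interval from -0.31 to 0.25) and 0.09 for Dhx30 (from -0.06 to 0.23). Ddx11, which unwinds DNA and acts in sister chromatid cohesion, had one of 0.13 (from -0.05 to 0.30). Among 4 members placed in no group, the change with the largest size was that of Ddx59, at 0.20 (from -0.05 to 0.46).

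Summed over all 52 members, helicase transcripts made up 7065 ± 39.8 CPM in WT and 6829 ± 20.0 CPM in KO, or 96.7% of the WT sum. The lowest WT library (7039 CPM) lay above the highest KO library (6853 CPM; exact two-sided permutation p = 0.1, the smallest that 3 against 3 libraries can give). As a share of all deposited counts the family held 0.694% to 0.709% in WT and 0.686% to 0.688% in KO libraries. On the same scale all genes tested summed to 98.7% of WT in KO, again with no overlap between the genotypes. With FPKM in place of CPM the KO sum of the members was 96.2% of WT, and with library totals without TMM it was 98.0%. Ddx3x alone accounted for 112 CPM of the difference.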

How the data were processed

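The deposited files are raw counts per gene and FPKM (counts per gene length and library depth, calculated by the authors), both for the 6 libraries. Per the labels and the methods of the study, RNA was extracted with TRIzol, libraries were made with a NEBNext Ultra kit, reads were aligned with HISAT2 2.0.5 and genes were counted with featureCounts 1.5.0-p3. The strand setting is not given in the sources used here. The submitters' processing notes name GRCm38 and mm10, the methods name an Ensembl release of a later build, and the coordinates of the deposited tables are not those of GRCm38, so that positions are not printed from the tables, only chromosomes and the gaps and overlaps between genes computed within them. Promoter sequences are from RefSeq (GRCm38.p6). The deposited FPKM values were used to compare levels between genes, and the deposited counts for all tests.

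Members and gene lists were chosen with earlier results of these data known. Groups were taken from the sample titles. Genes with at least 10 counts in at least 3 libraries were tested with edgeR 4.0.16 in R 4.3.3 (TMM, quasi-likelihood fit without covariates, Benjamini-Hochberg adjustment over 14454 genes); a call is an adjusted p below 0.05. CPM used TMM-scaled library sizes, and values after ± are the SD over 3 libraries unless marked SE. Intervals are 95% confidence intervals of the fit. The text names called members, members linked to R-loops or precipitated with MCM8, the highest and the least abundant members, the 3 largest changes in each direction, and sensing and germ line members. Members with an unadjusted p below 0.05, Ddx6, the partner genes and the examples Ddx11, Ddx19b, Ddx28, Ddx59, Dhx16, Dhx29, Dhx30 and Dhx36 of smaller groups fall outside that rule and were added after their values were seen. Alternatives were DESeq2 1.42.0, limma 3.58.1 (voom), robust edgeR, RLE scaling, totals without TMM, other filters, a replicate block and each library left out. The fits were also run on counts simulated with the same spread for every library, so a library that stands apart is not represented there. Totals of 12722979 to 21022755 counts per library set the precision, and rare transcripts have wide intervals. Ddx53 was not analysed here. Figures used Python 3.11.15 with matplotlib 3.10.9.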

Additional observations from a re-analysis of the deposited data

How the results depend on the processing

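Dhx34 was called under all 14 alternatives computed for it, with a log2 fold change between 0.68 and 0.87. Ddx3x kept its direction under all 15, with a log2 fold change between -0.25 and -0.16. Its call was lost without KO1, without KO3 and with Ddx3y added to it, an alternative chosen after seeing the data (adjusted p = 0.081, 0.0649 and 0.0733). With each library left out in turn, helicase calls ranged from 1 to 2 higher and from 0 to 3 lower, the median log2 fold change from -0.0485 to -0.0118, calls among related helicases and cofactors from 2 to 7, among ribosome assembly factors from 1 to 10 and among interferon-stimulated genes from 0 to 1. The last count was 0 with DESeq2 and with the replicate block. Mcm8 remained lower throughout, from -1.84 to -1.63, and Ddx5 was not called, from -0.07 to -0.02. Dhx9 ranged from -0.0641 to 0.0062 and turned positive only without WT2.

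Members near 0 changed sign without a call. Ddx17 was at 0.00031 with limma-voom, at 0.019 with totals only and at 0.00099 with the replicate block, and single-library omissions gave -0.0558 to 0.0282. Ddx23 was at 0.018 with totals only and in single-library omissions between -0.0486 and 0.0335. Ddx28, Ddx58 and Dhx58 changed sign only with a library left out, between -0.144 and 0.0259, between -0.0186 and 0.0462, and between -0.199 and 0.0452. Scaling by totals only moved the median of all genes from -0.00010 to 0.0198. Same-numbered libraries of both genotypes did not deviate together (correlations of -0.02, -0.0076 and 0.05), so the numbers were not taken as pairs. The replicate block called the same members, Dhx34 (adjusted p = 0.00472) and Ddx3x (adjusted p = 0.023), and 1815 genes in all against 2046. Few counts limit Ddx4, Ddx25, Ddx43 and Ddx60.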
